A study of Mus musculus with 20 samples.

Results

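The regions described here are chromatin sites listed as open only in the middle of a myeloid differentiation time course. They were chosen by their presence in the peak lists at 24, 36 and 48 h after withdrawal of estradiol (E2) and their absence from the lists at 0, 4, 8, 72, 96 and 120 h, with the 12 h list left free. Of 88351 union regions of the series, 1237 met this rule, or 1.40% of them. A union region is the stretch covered by peaks of any of the 10 lists that overlap by at least 1 bp. The presence and absence used by the rule describe the regions and are not a finding.

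The study profiled accessible chromatin by ATAC-seq in cultured mouse ER-Hoxa9-Lys-GFP cells of the C57BL/6 strain. In all groups the cells express ER-Hoxa9, a fusion of an estrogen receptor with the homeobox protein Hoxa9, and a green fluorescent reporter, Lys-GFP, named for lysozyme. All were grown in RPMI medium with serum and medium conditioned with stem cell factor. The 0 h group was kept with E2, and the groups at 4, 8, 12, 24, 36, 48, 72, 96 and 120 h were washed and moved to medium without E2. There were 20 samples, 2 at each time, but 1 peak list stands for both samples of a time. The nuclei of a preparation were split between 2 transposition reactions, per the labels' protocols, so the 2 samples may be technical replicates. No spread between replicates could therefore be computed, and no test across samples was possible. The lists hold no counts, so read depth is unknown. The shares below carry 95% Wilson intervals, which cover counting error only. Neighbouring regions are not independent of each other.

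In ATAC-seq the transposase Tn5 inserts sequencing adapters into DNA that is not wrapped tightly in nucleosomes, so peaks mark promoters, enhancers and other exposed sites. Promoters tend to stay open across related cell states, whereas distal elements open and close as lineage transcription factors come and go. Hoxa9 holds myeloid progenitors in an immature, self-renewing state. Loss of its activity in such cells is known to release them toward granulocytes or macrophages. Long terminal repeats (LTRs) left by endogenous retroviruses carry transcription factor sites and can act as tissue-specific regulatory elements.

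A minority of the sites lay at promoters, and the sequences below show what kind of promoter these were. RefSeq promoter windows (GRCm38.p6) of 30 genes were overlapped by 28 of the 1237 sites, and 15 of these genes had the whole window inside the site. The 250 bases before the start of 6 of these genes are printed 5′ to 3′ on the strand of the gene, because the site is assigned to that same protein-coding gene and they have the widest 36 h peaks among such genes. Capitals mark matches to the short motifs spelled out in the next paragraph. Mylk3 encodes a cardiac myosin light chain kinase, and its printed stretch is chr8:85381042-85381291, minus strand. Arhgap32, a GTPase-activating protein, is shown for chr9:32224025-32224274, plus strand. Hpn, the membrane serine protease hepsin, is shown for chr7:31110998-31111247, minus strand. Nrn1l, neuritin 1-like, is shown for chr8:105893317-105893566, plus strand. Vipr1, a receptor for vasoactive intestinal peptide, is shown for chr9:121642466-121642715, plus strand. Set, a histone chaperone and inhibitor of protein phosphatase 2A, is shown for chr2:30061746-30061995, plus strand.
Mylk3: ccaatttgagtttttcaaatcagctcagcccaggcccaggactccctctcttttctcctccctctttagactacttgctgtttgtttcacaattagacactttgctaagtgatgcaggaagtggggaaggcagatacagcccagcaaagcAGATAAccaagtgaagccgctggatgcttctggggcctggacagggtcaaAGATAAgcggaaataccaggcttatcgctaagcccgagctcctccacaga
Arhgap32: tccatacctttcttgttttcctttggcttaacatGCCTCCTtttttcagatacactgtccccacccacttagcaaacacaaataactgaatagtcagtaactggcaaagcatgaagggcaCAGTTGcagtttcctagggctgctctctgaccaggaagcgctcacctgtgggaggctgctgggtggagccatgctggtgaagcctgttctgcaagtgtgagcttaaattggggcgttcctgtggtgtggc
Hpn: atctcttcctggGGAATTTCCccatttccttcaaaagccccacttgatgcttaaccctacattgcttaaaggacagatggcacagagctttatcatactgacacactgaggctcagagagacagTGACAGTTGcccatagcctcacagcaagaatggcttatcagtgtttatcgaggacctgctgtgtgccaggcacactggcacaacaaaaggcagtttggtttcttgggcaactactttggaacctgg
Nrn1l: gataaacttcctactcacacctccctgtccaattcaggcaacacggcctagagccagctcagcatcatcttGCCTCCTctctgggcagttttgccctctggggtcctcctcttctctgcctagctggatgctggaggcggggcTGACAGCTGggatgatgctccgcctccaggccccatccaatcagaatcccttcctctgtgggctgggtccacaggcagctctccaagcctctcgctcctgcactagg
Vipr1: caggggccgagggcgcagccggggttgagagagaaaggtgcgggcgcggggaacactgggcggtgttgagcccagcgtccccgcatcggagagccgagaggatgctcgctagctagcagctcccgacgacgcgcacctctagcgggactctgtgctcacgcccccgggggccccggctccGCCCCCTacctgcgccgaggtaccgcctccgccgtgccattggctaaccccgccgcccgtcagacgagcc
Set: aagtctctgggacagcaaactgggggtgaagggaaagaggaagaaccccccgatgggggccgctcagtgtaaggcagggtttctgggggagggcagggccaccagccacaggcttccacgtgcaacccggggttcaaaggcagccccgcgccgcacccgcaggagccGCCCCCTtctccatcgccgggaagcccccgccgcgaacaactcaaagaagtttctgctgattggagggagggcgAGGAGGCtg
The stretches range in GC content from 48% in Hpn to 72.8% in Vipr1. Vipr1 holds 30 CpG dinucleotides and Hpn 1, so both CpG-rich and CpG-poor promoters are among the sites.

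Short motif cores were searched on both strands in the 250 bases before the start of the 30 genes and, for comparison, of all 32851 promoter windows of the RefSeq table. The CTCF core (AGGNGGC) was found in 16 of the 30 genes, or 53.3% (36.1 to 69.8), and in 8214 of all 32851 windows. The Myb core (CAACTG) was found in 6 genes (20%, 9.51 to 37.3) and in 11.1% of all windows. The MEIS core (TGACAG) was found in 5 genes (16.7%) and in 15.9% of all windows, and the nuclear receptor core (AGGTCA) in 4 genes (13.3%) and in 14.0% of all windows. The STAT core (TTCNNNGAA) and the E-box CAGCTG each stood in 3 genes (10%), against 7.02% and 13.0% of all windows. The PU.1 core (GAGGAAGT) and the GATA core (AGATAA) each stood in 2 genes (6.67%), against 2.44% and 9.99% of all windows. The AP-1 core (TGANTCA), the NF-kB core (GGANTTTCC) and the NFAT core (TGGAAAA) each stood in 1 gene (3.33%), against 6.75%, 1.07% and 5.93% of all windows. The cores for C/EBP (TTGCNNCAA), RUNX (TGTGGTTT), HOXA9 with PBX (TGATTTAT), ETS-IRF (GAANTGAAA), CREB (TGACGTCA), KLF (GGGTGTGG) and glucocorticoid receptor (ACANNNTGT) were found in 0 of 30 genes. A count of 0 in 30 genes allows a share of up to 10%, and all windows held these cores at 0.837 to 5.84%, so a difference was not detectable for them. The Myb core overlaps the MEIS core in Hpn, and the E-box CAGCTG overlaps the MEIS core in Nrn1l. Most of these cores are short, a match is a match of letters only, and the median GC content of the 30 genes was 51.2%, against 52.4% over all windows. The 30 genes stand for 28 of the 1237 sites, so these counts say nothing of the distal ones.

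A pair of sites cover whole microRNA genes, whose mature products are printed because their whole hairpins lie inside a site. MicroRNAs bind mRNAs through their seed, bases 2 to 8, which is in capitals. Mir6939 lies in the site chr12:112659012-112659467 and Mir3095 in the site chr4:58440522-58441355.
mmu-miR-6939-3p: cCUCACUUgacccgcugcag
mmu-miR-6939-5p: cAGGCAGCugguugguggaag
mmu-miR-3095-3p: uGGACACUggagagagagcuuuu
The 3 seeds differ from each other. The Mir6939 site was not listed at 12 h and had peaks of 262, 422 and 418 bp at 24, 36 and 48 h. The Mir3095 site was also absent at 12 h and had peaks of 531, 834 and 605 bp at 24, 36 and 48 h. It was among the 10 widest sites at 36 h.

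The window from 24 to 48 h held slightly more regions than any other window of exactly 3 consecutive lists. Of 7386 regions listed in exactly 3 lists, 3404 were listed in consecutive ones, and 874 of these were the sites listed at 24, 36 and 48 h alone. The next windows held 861 regions (0 to 8 h), 562 (36 to 72 h), 279 (72 to 120 h) and 274 (4 to 12 h). The remaining 363 sites were listed at 12 h as well and so form the 12 to 48 h window of 4 lists. That window was small beside 24 to 72 h, with 1064 regions, and 0 to 12 h, with 1442. The lists differ in length: those at 24, 36 and 48 h held 62559, 59683 and 59562 peaks, while those at 0 to 12 h held 54717 to 57666, and those at 72, 96 and 120 h held 46837, 29806 and 23620. The window thus covers the 3 longest lists, and the part of list length in the result was not tested. When every list was cut to its 23620 widest peaks, 217 regions met the rule, and 97 of the 1237 sites overlapped one of them.

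**Figure D1:**
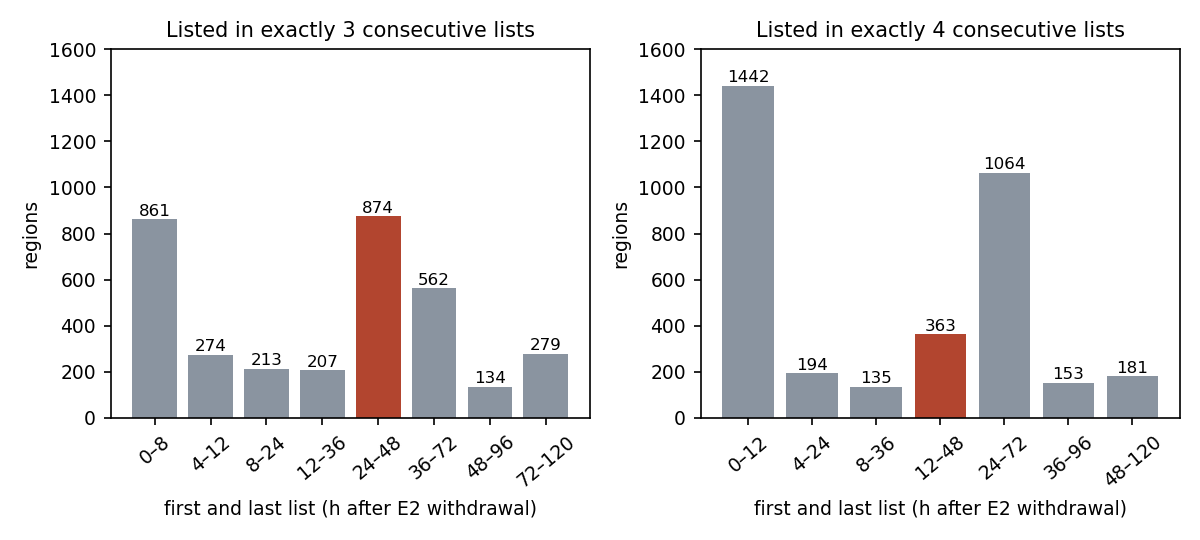
Number of union regions listed in exactly 3 (left) or exactly 4 (right) consecutive peak lists, by first and last list in h after E2 withdrawal. Red bars hold the 874 and 363 sites described here, and grey bars the other windows.

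Many regions came close to the pattern of the sites without meeting it. Another 4851 regions missed the pattern at exactly 1 list, 2509 by a peak too many and 2342 by a peak too few. The most frequent extra peak was at 72 h, in 1539 regions, and the rarest at 120 h, in 17. Extra peaks at 0, 4 and 8 h were seen in 272, 250 and 384 regions. The peak lacking was that at 24 h in 964 regions, at 48 h in 727 and at 36 h in 651. Regions with the extra 72 h peak had a median width of 367 bp at 36 h and those with an extra 0 h peak 314.5 bp, while the sites themselves had 338 bp. More regions of this shape thus lasted to 72 h than closed before it.

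**Figure D2:**
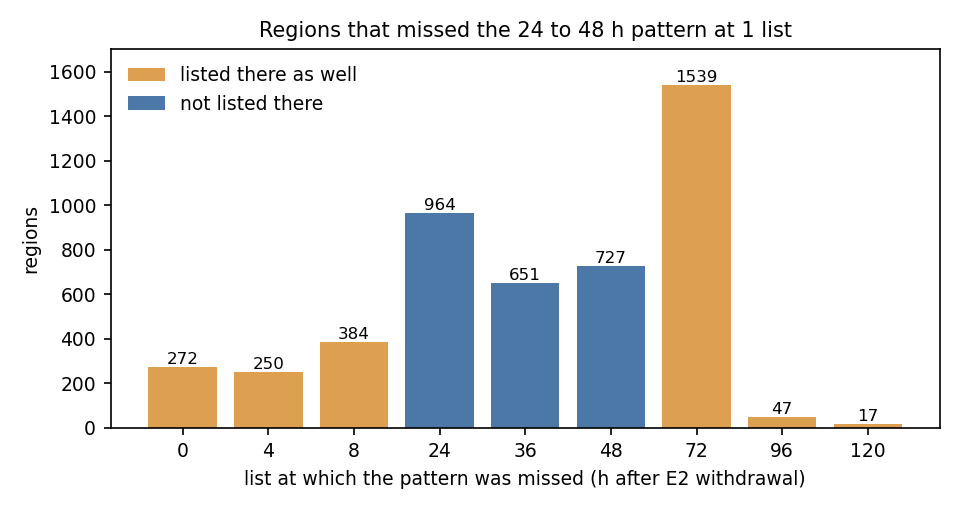
Number of regions that differed from the 24 to 48 h pattern at a single list (h after E2 withdrawal), by being listed there as well (orange) or not listed there (blue). The tallest bar is the 1539 regions also listed at 72 h.

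At 12 h, the list the rule left free, 363 of the 1237 sites had a peak, or 29.3% (26.9 to 31.9). Among the other 43141 regions listed at 24, 36 and 48 h the share was 87.6% (87.2 to 87.9). Those other regions include the ones open throughout, so the gap partly follows from the absence at 0 to 8 h that the rule requires. In regions that fit the pattern but for a peak at 72 h the share was 30.9% (28.6 to 33.2). In regions that fit it but for a peak at 8 h it was 65.1% (60.2 to 69.7). Sites at promoters had a 12 h peak in 11 of 46 cases.

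Peaks of the sites were narrow, and about as wide at 24 h as at 36 and 48 h. Their median widths at 12, 24, 36 and 48 h were 315, 336, 338 and 341 bp. The other regions listed at 24, 36 and 48 h had medians of 505, 477, 449 and 458 bp in the same 4 lists. Transient regions of the neighbouring windows, defined in the next paragraph, were at least as narrow. The 956 early ones had a median of 317.5 bp at 24 h, and the 1107 late ones 326 bp at 48 h. Narrow peaks are therefore not particular to the sites. Within its list, the median site stood at the 31.3, 35.0 and 35.2 percentile of width at 24, 36 and 48 h, below the middle of each list. The widest of a site's 3 peaks was the 24 h one in 438 sites, the 36 h one in 370 and the 48 h one in 429. The ratio of the widest to the narrowest of the 3 peaks had a median of 1.18, and it passed 2 in 32 sites. Only 6 sites held more than 1 peak of a list. Width is the only graded value in these lists, since the deposited score is 0 for every peak, and it is no measure of how accessible a site is.

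**Figure D3:**
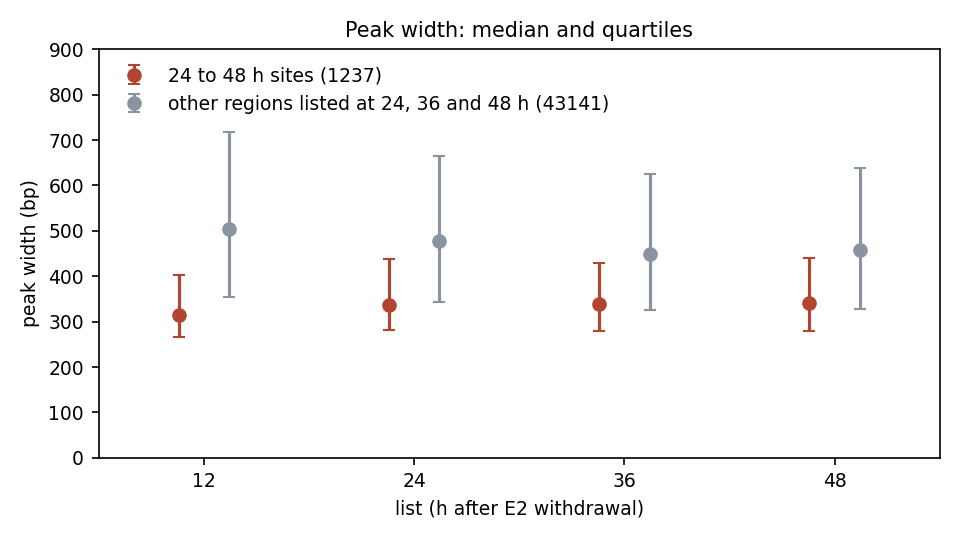
Peak width in bp in the lists at 12, 24, 36 and 48 h for the 24 to 48 h sites (red, left; at 12 h the 363 with a peak there) and the other regions listed at 24, 36 and 48 h (grey, right). Points are medians and bars run between the quartiles. The medians of the sites lie between 315 and 341 bp, and those of the other regions between 449 and 505 bp.

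The sites were mostly distal. Only 46 lay within 1000 bp of a transcription start site (TSS), or 3.72% (2.80 to 4.92), against 20.6% (20.2 to 21.0) of the other regions listed at 24, 36 and 48 h. The median distance to a TSS was 24217 bp for the sites and 13948 bp for the other regions. Introns held 49.4% (46.6 to 52.2) of the sites and 38.5% of the other regions, and intergenic sequence 42.4% (39.6 to 45.1) of the sites and 39.1% of the other regions. With promoter regions left out, introns held 50.2% (47.4 to 53.0) of the distal sites and 45.0% of the other distal regions, and the order for intergenic sequence turned, to 44.0% (41.2 to 46.8) of the distal sites and 49.3% of the others. CpG islands, which mark many constantly open promoters, were annotated under 0.162% of the sites and 2.64% of the other regions. Transient regions of the neighbouring windows shared the distal position. Promoters made up 3.66% (2.64 to 5.05) of 956 early ones, listed at 12 and 24 h and absent at 0, 4, 48, 72, 96 and 120 h, and 2.53% (1.76 to 3.63) of 1107 late ones, listed at 48 and 72 h and absent at 0 to 24, 96 and 120 h. A low promoter share is therefore not particular to the 24 to 48 h window.

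Retroviral repeats were frequent under the distal sites. Of 1191 sites more than 1000 bp from a TSS, 189 were annotated to an LTR, or 15.9% (13.9 to 18.1), against 9.56% (9.26 to 9.88) of 34244 other distal regions. LINE elements stood under 5.71% (4.53 to 7.18) of the distal sites and 3.85% of the other distal regions, and SINE elements under 8.31% (6.88 to 10.0) and 6.47%. The intervals for all 3 classes did not overlap. Because the sites were narrower, the shares were also taken among distal regions whose 36 h peak was at least 250 and under 450 bp wide, a comparison added after the data were seen. There the LTR share was 18.8% (16.2 to 21.7) of 793 sites against 10.8% of 18482 other regions, the LINE share 7.19% against 4.09%, and the SINE share 6.94% (5.37 to 8.92) against 7.59%. The SINE difference thus ran the other way at matched width, with overlapping intervals, while those for LTR and LINE elements stayed apart. The early and late transient regions had LTR shares of 14.4% (12.3 to 16.9) and 13.5% (11.6 to 15.7), with intervals that overlap that of the sites. How uniquely reads can be placed in repeats was not tested.

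Among repeat families, ERVL-MaLR elements stood under 103 sites, L1 and B2 elements under 61 each, and ERVK elements under 55. As a share of all union regions on a family, the sites made up 2.46% (2.03 to 2.97) for ERVL-MaLR, 2.42% (1.86 to 3.13) for ERVK, 2.28% (1.78 to 2.92) for L1 and 1.52% (1.18 to 1.94) for B2, against the 1.40% over all regions. That background includes promoter regions, where sites were rare. Among distal regions, ERVL-MaLR stood under 8.56% of the sites and 5.53% of all regions, and ERVK under 4.62% and 3.00%. L1 stood under 5.12% and 3.53%, but B2 under 5.12% (4.01 to 6.52) and 5.30%. Single elements were fewer. MTC, of the ERVL-MaLR family, was under 11 sites of 237 regions (4.64%, 2.61 to 8.12). RLTR45, of the ERVK family, was under 16 of 469 (3.41%, 2.11 to 5.47), and Lx8, of the L1 family, under 12 of 383 (3.13%, 1.80 to 5.40). The element most often met, the SINE B3, was under 28 sites of 1984 regions, which is 1.41% and close to the share over all regions. These 4 were picked after the values were seen. Only elements under at least 8 sites were compared, a cut on the site count itself. Among the rest of these, ORR1F was under 8 sites of 248 regions (3.23%) and ORR1B1 under 9 of 323 (2.79%). The others had lower shares. B2_Mm2 was under 16 sites of 937 regions (1.71%) and B3A under 14 of 929 (1.51%). ORR1E was under 11 of 639 (1.72%) and MTD under 8 of 434 (1.84%).

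**Figure D4:**
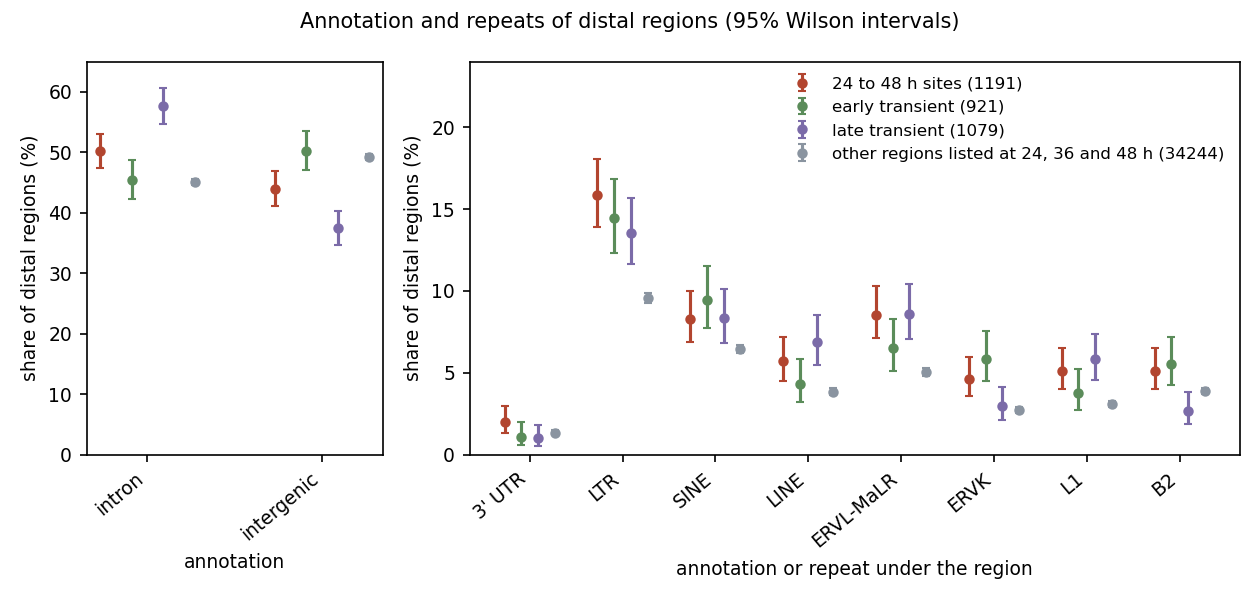
Share of distal regions (%) annotated as intron or intergenic (left) and as 3′ UTR or to repeat classes and families (right), for the 24 to 48 h sites (red), early (green) and late (purple) transient regions and the other regions listed at 24, 36 and 48 h (grey). Bars are 95% Wilson intervals. The LTR share of the sites is 15.9%, that of the other regions 9.56%, and those of both transient sets lie between.

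The sites lay farther from constantly open regions than other distal regions did, and nearer to each other. A region listed at all 10 times lay within 10000 bp of 231 of the 1191 distal sites, or 19.4% (17.2 to 21.7), and of 24.2% (23.8 to 24.7) of the other distal regions, a set that holds some of those constant regions itself. The median distance to such a region was 37454 bp for the sites and 30724 bp for the others. Among early and late transient distal regions, 16.0% (13.7 to 18.5) and 25.4% (22.9 to 28.1) had a constant region within 10000 bp. Distance from constant regions is therefore not particular to the sites. A gained region, absent at 0 to 8 h and listed at 72 to 120 h, lay within 10000 bp of 3.61% (2.69 to 4.83) of the sites and 4.97% (4.75 to 5.21) of the others. For lost regions, with the reverse pattern, the shares were 17.9% (15.8 to 20.2) and 18.7%. At this distance the intervals overlap for gained and for lost regions but not for constant ones. Within 50000 bp a gained region lay near 12.6% (10.8 to 14.6) of the distal sites and 17.2% (16.8 to 17.6) of the other distal regions, and these intervals do not overlap. For early and late transient distal regions this share was 11.0% and 20.3%. Another site lay within 50000 bp of 13.0% (11.2 to 15.04) of the distal sites, while a site lay within that distance of 9.90% (9.59 to 10.2) of the other distal regions. At matched width the first of these shares was 12.7% (10.6 to 15.2) and the second 9.67%. Nearness between sites is mutual, so both sites of a pair are counted and the intervals of the first share are too narrow. A site lay within 50000 bp of 7.93% (6.35 to 9.85) of early and 9.18% (7.59 to 11.0) of late transient distal regions. Chained at gaps of up to 50000 bp, the sites formed 70 pairs and 7 groups of 3, and 1076 stood alone.

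The groups of 3 show the kind of locus involved. Vcl, which encodes the focal adhesion protein vinculin, had 3 sites upstream of its start within 20434 bp. Another group of 3 was assigned to Mgst2, a microsomal glutathione transferase that can make leukotriene C4, but all of them lay in an intron of Maml3, a coactivator of Notch signalling. Further groups spread over the neighbours Trim47, Trim65 and Mrpl38, over Igll1, Top3b and Ppm1f, over Fam241a and 9830132P13Rik, and over Adipor2, Wnt5b and Fbxl14. The nearest TSS is thus not always the gene a site lies in: of 607 intronic sites with a matched host gene, 432 (71.2%, 67.4 to 74.6) were assigned to that same gene, and the share among the other regions listed at 24, 36 and 48 h was 71.9%.

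By nearest TSS, the sites fell on 1147 of 19463 genes with a union region, or 5.89%. A single site was assigned to 1062 genes, 2 to 80 genes and 3 to 5 genes. The 15 genes with most sites included, besides Vcl and Mgst2, the lipid transporter gene Abca13 and the adaptor gene Nck2, each with 3. Larger genes and gene deserts collect more regions of any kind. Abca13 held 25 union regions and Mgst2 30, whereas Vcl had 6 in all.

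At Vcl, the site nearest the start, chr14:20911622-20912200, had its widest peak at 24 h, with 579, 446 and 397 bp at 24, 36 and 48 h. The next had 291, 288 and 284 bp, and the farthest, which was listed at 12 h too, had 324, 335, 306 and 366 bp at 12, 24, 36 and 48 h. The site nearest the start thus narrowed toward 48 h, while the other widths stayed within a narrow range.

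**Figure D5:**
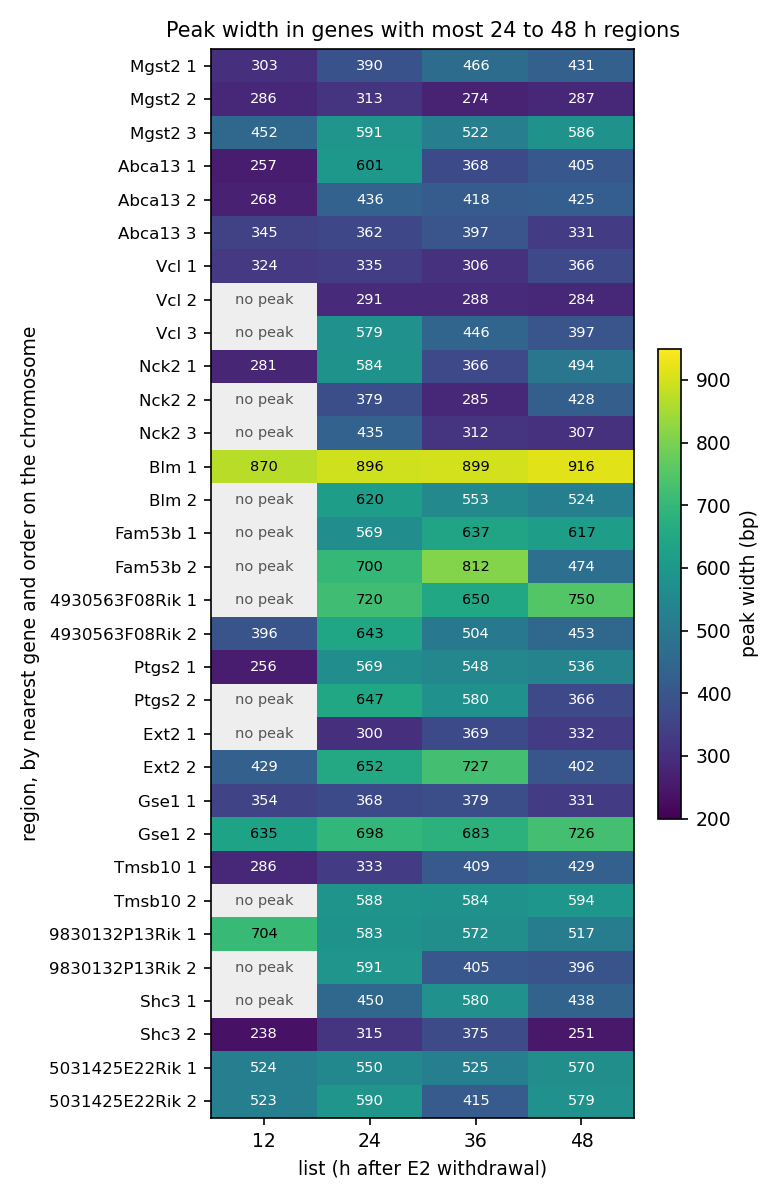
Peak width in bp at 12, 24, 36 and 48 h after E2 withdrawal for every site of 14 of the 15 genes with most sites, numbered by position on the chromosome. Grey cells mark a list without a peak, which occurs at 12 h only because the rule requires a peak at the other 3 times. A site at Blm is the widest in the plot, with 896 to 916 bp at 24 to 48 h.

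Ptgs2, the gene for the inducible cyclooxygenase that starts prostaglandin synthesis, had no region other than sites. Both of its 2 union regions were 24 to 48 h sites. The first, chr1:150106455-150107053, lies in the 3′ UTR of its last exon and had peaks of 256, 569, 548 and 536 bp at 12, 24, 36 and 48 h. The second, chr1:150115111-150115757, lies downstream of the gene and had 647, 580 and 366 bp at 24, 36 and 48 h. The first thus widened after 12 h, while the second narrowed toward 48 h. Of 3666 genes with 2 union regions, Bora, Camk4 and Ptgs2 had both as sites. Of 4668 genes with 1 union region, 46 had it as a site, and of 2649 genes with 3, 0 had all 3.

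Regions near genes of 18 lists, most of them on blood cell function and others on housekeeping or non-blood genes, were sites about as often as all regions. Over these lists, 43 sites fell among the 3182 union regions of 406 genes, which is 1.35% against 1.40% over all regions. Of these genes, 38 had a site, or 9.36% against 5.89% of all genes with a region. The list genes had 7.84 regions each on average and all genes 4.54, so the share per gene and the share per region differ. The share was above 1.40% in 6 lists and below it in 12, and 3 of the lists had 0 sites. The counts per list are small, so the intervals are wide, and they depend on the reach of the nearest-gene assignment. With regions within 50000 bp of the TSS only, 1.280% of all regions were sites. The share fell below that background in the cell cycle list (1 of 107, 0.935%), the kinase and phosphatase list (0.483%) and the apoptosis list (0.980%). The lists that came above it included the myeloid transcription factor list (1.93%) and, barely, the primary granule list (1.282%). As a look at the cell type, promoter regions of 9 of 12 primary granule, 8 of 20 secondary and tertiary granule, 9 of 27 macrophage and monocyte, 10 of 26 lymphoid, 7 of 16 erythroid and megakaryocyte and 0 of 15 non-blood genes were listed at 0 h. The progenitor list had 15 of 27 at 0 h and the mast cell, basophil and eosinophil list 2 of 15. The neutrophil surface and chemotaxis list had 18 of 33 at 0 h. Promoter listing at 0 h thus did not separate the blood lineages cleanly. At 36 h the counts were 9 of 12 primary granule, 11 of 20 secondary and tertiary granule and 12 of 27 macrophage and monocyte genes. They were 8 of 26 lymphoid, 4 of 16 erythroid and megakaryocyte and 3 of 15 mast cell, basophil and eosinophil genes. At 36 h the neutrophil surface and chemotaxis list had 21 of 33, the progenitor list 16 of 27 and the non-blood list 0 of 15.

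Among granule genes, the primary granule list had 1 site in 86 regions (1.16%), at Ctsc, which encodes the protease that activates neutrophil serine proteases. It lies in the 3′ UTR, at chr7:88310435-88311363, and had peaks of 821, 652 and 755 bp at 24, 36 and 48 h, well over the median. The secondary and tertiary granule list had 2 sites in 74 regions (2.70%, 0.744 to 9.33), at Arg2 (arginase 2) and Lrg1 (a leucine-rich glycoprotein released by neutrophils). The Lrg1 site had peaks of 386, 264 and 290 bp at 24, 36 and 48 h and was the only region assigned to that gene. It lies in an intron of Sema6b. The neutrophil surface and chemotaxis list had 3 sites in 239 regions (1.26%), among them those at Il1r2 (a decoy receptor for interleukin-1) and Cxcr4 (a chemokine receptor that retains cells in bone marrow). The Il1r2 site had 465, 410 and 428 bp and the Cxcr4 site 323, 319 and 377 bp at 24, 36 and 48 h. Both are intergenic and were absent at 12 h. The macrophage and monocyte list had 1 site in 127 regions (0.787%), a narrow one near Ly6c2, a monocyte surface antigen, with 197, 209 and 199 bp.

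Signalling genes had sites at a similar rate. Kinases and phosphatases had 4 in 273 regions (1.47%, 0.571 to 3.71), at Syk, Map3k5, Dusp6 and Dusp4. Syk is a kinase downstream of immune receptors, and its site, chr13:52673277-52674175, was widest at 12 h, with 875, 433, 578 and 376 bp at 12, 24, 36 and 48 h. The phosphatases Dusp6 and Dusp4, which switch off MAP kinases, had sites of 434, 563 and 452 bp and of 277, 311 and 371 bp at 24, 36 and 48 h. Actin and migration genes had 3 sites in 327 regions (0.917%), with 2 at Elmo1 and 1 at Vav3, both of which promote activation of Rac. The inflammatory and NF-kB list had 4 in 289 (1.38%), with 2 at Ptgs2 and 1 each at Nfkbia and Nfkbiz, regulators of NF-kB. The Nfkbia site lies on an MTC element, the LTR with the share of 4.64% given above, and had 291, 328 and 319 bp. AP-1 factors had 1 in 134 (0.746%), in the single exon of Junb, with 422, 391 and 430 bp. The interferon response list had 0 of 88 regions, which allows a share of up to 3.41%.

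Myeloid transcription factor genes held 8 sites in 624 regions (1.28%, 0.651 to 2.51), at 7 of 40 genes (17.5%, against 5.89% of all genes, with 15.6 regions per gene in the list). Runx1, a factor needed to form blood stem cells, had 2 sites upstream of its start. The one on an ORR1E element had 382, 307, 320 and 299 bp at 12, 24, 36 and 48 h, and the other, absent at 12 h, had 269, 314 and 307 bp at 24, 36 and 48 h. Stat5b, a mediator of cytokine signals, had an intronic site of 508, 356 and 533 bp, and Mef2c an upstream one of 335, 334 and 364 bp. Rara, a retinoic acid receptor with a known role in granulocyte maturation, had one at its promoter with 310, 297 and 292 bp. Progenitor genes had 3 in 268 (1.12%), at Ikzf2, Cdk6 and Gata2. Cdk6, a kinase that drives progenitors through G1 phase, had 546, 308 and 377 bp in an intron, and Gata2, a stem and progenitor cell factor, 259, 265 and 292 bp in its 3′ UTR. The set of regions near Runx1 was large, 49 in all, with 24 to 27 listed at 24 to 48 h, so 2 sites are a small part of it.

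Cell cycle genes held 4 sites in 136 regions (2.94%, 1.15 to 7.32), with an interval that includes 1.40%, and 1 in 107 when regions beyond 50000 bp were left out. Ccnd1, the G1 cyclin D1, had 2 upstream sites, with 362, 408 and 304 bp for the nearer and 343, 276 and 323 bp for the farther one. Cdkn2b and Cdkn1c, inhibitors of cyclin-dependent kinases, had 1 each, with 213, 237, 252 and 251 bp at 12, 24, 36 and 48 h for Cdkn2b and 222, 228 and 227 bp at 24, 36 and 48 h for Cdkn1c. The apoptosis list had 2 in 132 (1.52%), one in the intron of the survival gene Bcl2 with 440, 525, 476 and 467 bp, and one near its antagonist Bcl2l11 with 228, 253, 236 and 219 bp at 12, 24, 36 and 48 h. The housekeeping list had 0 of 101 regions, which allows a share of up to 2.97%.

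Lists of other lineages also held sites. Lymphoid genes had 3 in 116 regions (2.59%, 0.883 to 7.33), among them those at Igll1 (a surrogate light chain) and Rag2 (a recombinase subunit). The Igll1 site had 465, 429 and 458 bp and the Rag2 site 414, 360 and 426 bp at 24, 36 and 48 h. The mast cell, basophil and eosinophil list had 0 of 61, which allows up to 4.92%. The non-blood list had the highest share, with 3 in 29 regions (10.3%, 3.58 to 26.4): 2 near Olig2, a factor of oligodendrocytes, and 1 near Krt5, a keratin of epithelia. This interval rests on 3 sites of 2 genes. The Krt5 site was the gene's only region and had 357, 324 and 464 bp, and the Olig2 sites had 247, 281 and 260 bp and 348, 496 and 466 bp at 24, 36 and 48 h. The presence of a region near a gene does not show that the gene is expressed.

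The widest sites were a mixed group. The widest at 36 h, chr13:60680938-60682172 in an intron of Dapk1 (a death-associated kinase), had 1232, 1222 and 1231 bp at 24, 36 and 48 h, and the next, near Zfp11, 1221, 1154 and 1149 bp. Both are annotated to simple repeats of CA-rich units, which few of the sites are (14 of 1237, or 1.13%). Hsd17b2, a steroid dehydrogenase that inactivates estradiol, had an intronic site of 550, 1040, 1006 and 460 bp at 12, 24, 36 and 48 h; it was about as wide at 24 as at 36 h and much narrower before and after. The site near Blm, the gene for a DNA helicase, had 870, 896, 899 and 916 bp at 12, 24, 36 and 48 h. It was listed with peaks of that size at 4 times and not listed at 8 h or 72 h.

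The 46 promoter sites belonged to genes of mixed function. Ido1, an enzyme that breaks down tryptophan and is known for interferon control, had the widest at 36 h, with 643, 389, 887 and 541 bp at 12, 24, 36 and 48 h. Zfp111, a zinc finger gene, had 807, 683, 703 and 697 bp at the same 4 times. Those whose sequence is printed above were of ordinary to large width. The Mylk3 site had 648, 760, 644 and 705 bp at 12, 24, 36 and 48 h and the Hpn site 517, 606, 522 and 493 bp at the same times. The Arhgap32 site had 374, 594 and 665 bp at 24, 36 and 48 h, the Nrn1l site 599, 515 and 484 bp and the Set site 448, 407 and 379 bp, and all 3 were absent at 12 h. The CpG-rich Vipr1 promoter had 415, 413, 460 and 991 bp at 12, 24, 36 and 48 h, and was thus widest at 48 h, just before it left the list.

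Distal sites were assigned to genes with an open promoter as often as other distal regions were. The gene had a promoter region listed at 36 h for 53.5% (50.6 to 56.3) of the distal sites and 52.7% (52.2 to 53.2) of the other distal regions. It had one listed at all 10 times for 26.8% (24.3 to 29.4) and 26.1% (25.7 to 26.6). The differences of under 1 percentage point lie within the intervals of the sites.

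The 3′ UTR was annotated under 24 sites, or 1.94% (1.31 to 2.87), against 1.09% (0.994 to 1.19) of the other regions listed at 24, 36 and 48 h. Among distal regions the shares were 2.02% (1.36 to 2.98) and 1.37% (1.25 to 1.495), with overlapping intervals. Besides Ctsc, Ptgs2 and Gata2, the list includes Rhou, a small GTPase, with 322, 517 and 533 bp at 24, 36 and 48 h, and Elf5, an epithelial ETS factor, with 487, 479 and 358 bp.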

How the data were processed

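The 10 deposited lists hold peak positions, the nearest TSS and its distance, and HOMER annotations, and each list belongs to both samples of its time. Per the file headers, peaks were annotated with HOMER against mm10. Per the submitters' processing notes, BWA, MACS2 2.0, STAR 2.5 and mm9 were named, with no role or order. The coordinates are given as mm10, counted from 1, and 28 sites met promoter windows of the RefSeq table of GRCm38.p6, the same sequence as mm10. Read shifting for Tn5 and the pooling of replicates are not given in the sources used here. The deposited score is 0 for every peak, so width was used where peaks had to be ranked.

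Across lists, peaks that shared 1 bp or more were chained into union regions. Each region took its gene, TSS distance and annotation from its widest peak, and promoter regions were those no more than 1000 bp from a TSS. Wilson 95% intervals were computed, and a count of 0 was taken to allow up to 3 counts. The sites and the gene lists were chosen with earlier results of these data known. Named genes were the 15 with most sites (ties by summed 36 h width), up to 3 per list, the 10 widest sites and the 10 widest promoter sites at 36 h, and the groups of 3, and from these the text gives a part. A few genes and 1 gene list's site are not reported here. The 3′ UTR genes Rhou and Elf5, the repeat elements, Rara, Map3k5, Bora, Camk4 and the genes of the printed sequences were chosen after their values were seen. Motif content of genome windows was not analysed here, and promoter windows were searched instead. Region chaining and sorting were tested on simulated data. Python 3.11.15, pandas 2.3.3, numpy 2.4.6 and matplotlib 3.10.9 were used.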

Additional observations from a re-analysis of the deposited data

How the results depend on the processing

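The 1237 sites became 1240 when peaks had to overlap by at least 50% of the shorter one and 1210 when peaks up to 200 bp apart were merged. The 2 cuts by peak width kept few of the sites. Cut to the widest peaks at the length of the shortest list, the count was 217, with 25.3% listed at 12 h, a promoter share of 5.07% and a median 36 h width of 574 bp. With the widest 50% of each list, 830 regions met the rule and 180 of the sites overlapped one of them, with 25.8% at 12 h, a promoter share of 6.51% and a median width of 475.5 bp. Both cuts keep wide peaks by construction. Ignoring the list at 24, 36, 48 or 72 h gave 2201, 1888, 1964 or 2776 regions, since 1 condition fewer can only add regions. Requiring a 12 h peak left 363. The median width was 317, 321 and 353 bp without the 24, 48 and 72 h lists, and the share at 12 h was 35.3, 33.8, 37.8, 21.2 and 26.0% without the 0, 4, 8, 24 and 36 h lists. The promoter share was 2.51% within 500 bp of the TSS and 9.38% within 2500 bp. The number of gene lists above the share of all regions was 6, and 4 to 7 under 3 alternatives, but not always for the same lists. Within 50000 bp the cell cycle, kinase and apoptosis lists fell below it. The lists that came above it included the myeloid transcription factor list and, barely, the primary granule list. At the length of the shortest list, only the primary granule, neutrophil surface, inflammatory and progenitor lists had any region that met the rule. The myeloid transcription factor list had 0 of 350 there, and the primary granule list 2 of 55. The planned search of genome windows for motifs was not run, for want of a genome. No paired analysis was possible because each list belongs to both replicates of its time, and for the same reason no replicate could be left out. With no counts, depth and the size of a difference in accessibility cannot be judged, and an absent peak may be one below the authors' threshold.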
